A study of Mus musculus with 8 samples.

Results

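Dcx, Ccnd2, Prox1, Mpped1, Prkcd and Nts are genes used to recognise new neurons and the fields of the hippocampus. Each is represented by 1 transcript in a deposited table that compares hippocampal RNA of Jade2-knockout and control mice, so 6 of its 1679 transcripts are described here. They were found by gene symbol, except that of Prox1, a merged model (MERGE.1807.3) without a symbol that was taken by its locus. The control group was 4 libraries from wild-type C57BL/6 mice and the other group was 4 libraries from Jade2-knockout C57BL/6 mice, all 8 weeks old. The labels do not say how the knockout allele was made, whether it acts in all cells, or whether animals were pooled. Nor do they tie each library to an animal of its own, so the spread between libraries may be partly technical. Abundances are given as FPKM (fragments scaled to transcript length and library size), a unit taken from the quantification tool because the table names none.

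New granule neurons are born throughout life in the dentate gyrus of the mouse. Progenitors there divide under the control of D-type cyclins, of which cyclin D2 (Ccnd2) is known for its part in adult neurogenesis. Their daughters pass through a migrating, immature stage marked by doublecortin (Dcx), a microtubule-associated protein, and keep the homeobox protein Prox1 as mature granule cells. Pyramidal cells of fields CA1, CA2 and CA3 and of the subiculum carry other markers. Mpped1, a metallophosphoesterase, is used as a marker of CA1. Prkcd encodes protein kinase C delta and is strong in the thalamus, which lies next to the hippocampus, as well as in some CA3 cells. Nts encodes the precursor of the neuropeptide neurotensin and is found in the subiculum.

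The table is a selection. Its largest unadjusted p is 0.0498 and its smallest absolute log2 fold change is 1.00, both in the authors' deposited table. The 6 genes therefore had to differ between the groups in order to be listed, and they were chosen from that comparison. Their group differences are given as descriptions, with no test. Median abundance over the listed transcripts was between 0.773 and 0.900 FPKM per library, and depth is unknown because no counts were used. Of the targeted gene, the annotated Jade2 transcript ENSMUST00000109091 was listed at 0 in all 4 knockout libraries and stood between 1.41 and 5.05 FPKM in the controls. Of the 5 listed models of the locus, however, 3 ran the other way, being listed at 0 in all 4 controls and above 0 in all 4 knockouts, and the highest of them, MERGE.3721.1, stood between 3.59 and 12.3 FPKM there. The 5 models summed to between 8.07 and 19.5 FPKM in the knockout and between 4.45 and 16.0 FPKM in the control, so the ranges of the summed rows overlapped. Rows were listed for a group difference, so these values are not an independent check of the labels. Markers of hippocampal fields and cell types were looked for in the selected table, as given below, but general markers of hippocampal tissue were not. The tissue label was therefore not checked against general markers.

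What each listed row measures is a single transcript model and not a gene. GENCODE M21 on GRCm38 (the assembly that mm10 names) annotates 42 transcripts for the 6 genes, of which 5 are listed with the annotated coordinates, and the Prox1 row is a merged model. No other transcript of any of the 6 loci is in the table, and the other 37 annotated transcripts were not analysed here. The sequences below show, for Dcx, Ccnd2 and Prkcd, where the listed model differs from named other transcripts of its gene. For Mpped1 they are the bases before the listed start and before another annotated start. For Prox1 and Nts they are a coding part that the listed model could or does hold. Those of Mpped1 come from RefSeq and the others from GENCODE M21, and all are printed 5′ to 3′ on the transcribed strand.

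The listed Dcx transcript, ENSMUST00000112851 (Dcx-203, mm10, chromosome X, 143860711 to 143933204, minus strand, protein coding), has 7 exons and 365 codons. Its coding sequence differs from that of Dcx-201 (366 codons) by 3 bases at the last coding junction, in capitals, which Dcx-201 has and Dcx-203 lacks (both spanning chrX:143863578-143870639, minus strand).
Dcx-203, last coding junction: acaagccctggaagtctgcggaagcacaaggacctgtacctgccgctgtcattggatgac
Dcx-201, last coding junction: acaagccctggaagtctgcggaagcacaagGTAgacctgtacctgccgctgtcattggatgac
It differs from Dcx-204 (360 codons) by 15 coding bases at the junction before, in capitals, which Dcx-203 keeps and Dcx-204 lacks (chrX:143870675-143875799, minus strand).
Dcx-203, upstream junction: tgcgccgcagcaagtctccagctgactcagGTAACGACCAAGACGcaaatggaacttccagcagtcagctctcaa
Dcx-204, upstream junction: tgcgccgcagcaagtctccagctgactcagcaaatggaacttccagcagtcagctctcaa
The listed Dcx row is thus one of 4 annotated coding transcripts whose coding sequences are nearly the same.

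The listed Ccnd2 transcript, ENSMUST00000201637 (chromosome 6, 127148300 to 127151007, minus strand, protein coding), is a short form with 2 exons and 156 codons, while the full-length ENSMUST00000000188 has 5 exons and 289 codons. They share the first 408 coding bases. At the end of the second coding exon the short form reads on into the following intron for its last 60 coding bases, where the full-length form is spliced to the next exon. The capitals mark the bases after that point (short form chr6:127148604-127148693 and full-length form chr6:127146123-127148693, both minus strand).
Ccnd2, short form: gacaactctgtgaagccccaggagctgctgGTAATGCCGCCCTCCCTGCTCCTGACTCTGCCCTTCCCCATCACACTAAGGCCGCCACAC
Ccnd2, full-length form: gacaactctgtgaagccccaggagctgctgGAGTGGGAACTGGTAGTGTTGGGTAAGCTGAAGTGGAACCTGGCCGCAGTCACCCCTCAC
Another annotated transcript, ENSMUST00000201066, also has 156 codons, and the read-through bases also lie in the retained-intron transcript ENSMUST00000202363. The span of the short form overlaps 9330179D12Rik, a gene on the opposite strand. No label or header says whether strand was used in quantification, and without it reads of the pair cannot be told apart.

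The Prox1 row, MERGE.1807.3 (chromosome 1, 190118035 to 190153643, minus strand), ends at the same base as the longest annotated Prox1 transcript, ENSMUST00000175916, and starts inside its second intron. Which exons it holds is not recorded in the table or the labels. The span covers 3 of the 5 exons of ENSMUST00000175916, from the third on, and 486 of its 2211 coding bases (22%). It begins 120 bases upstream of the third exon, all of which is coding (chr1:190153416-190153523, minus strand) and is shown because it is the first annotated exon that the model could contain. All 3 annotated Prox1 transcripts have this exon.
Prox1, exon 3: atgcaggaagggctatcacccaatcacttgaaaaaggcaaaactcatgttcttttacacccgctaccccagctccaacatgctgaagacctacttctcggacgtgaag
The model cannot hold the second exon of Prox1, where most of the coding sequence lies.

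The listed Mpped1 transcript, ENSMUST00000046168 (chromosome 15, 83780023 to 83858484, plus strand, protein coding), has 7 exons and 326 codons. ENSMUST00000109470 has an identical coding sequence and starts at another first exon further downstream. The 2 annotated starts are what tells these transcripts apart, so the 250 bases before each are shown, from RefSeq on GRCm38.p6 with each CG dinucleotide in capitals (chr15:83779773-83780022 and chr15:83784579-83784828, plus strand).
Before ENSMUST00000046168: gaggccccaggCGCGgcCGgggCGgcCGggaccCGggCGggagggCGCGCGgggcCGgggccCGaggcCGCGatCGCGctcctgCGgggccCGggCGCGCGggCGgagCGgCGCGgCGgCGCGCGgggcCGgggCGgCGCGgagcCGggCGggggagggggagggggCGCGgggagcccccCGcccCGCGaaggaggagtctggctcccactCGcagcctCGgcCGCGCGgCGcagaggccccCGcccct
Before ENSMUST00000109470: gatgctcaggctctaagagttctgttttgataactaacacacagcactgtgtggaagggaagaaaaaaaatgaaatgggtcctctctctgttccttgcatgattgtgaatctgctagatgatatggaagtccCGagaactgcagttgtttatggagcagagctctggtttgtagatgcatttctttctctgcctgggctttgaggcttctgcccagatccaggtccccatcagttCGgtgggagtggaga
The window before the listed start holds 47 CG dinucleotides and the other holds 2. Another annotated coding transcript, ENSMUST00000163723, starts inside the first window, at 83779982. That window is therefore not particular to the listed transcript. Over 32851 such windows in RefSeq the median is 6, and 99.8% hold fewer than the window before the listed start.

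The listed Prkcd transcript, ENSMUST00000140701 (Prkcd-211, chromosome 14, 30595653 to 30600207, minus strand), is annotated as a retained intron with no coding sequence. Of its 1289 bases, 459 (35.6%) lie outside every annotated coding transcript of the gene, and the rest are in exons of the end of the gene. The capitals mark the last intronic bases before it joins an exon of the coding transcripts (chr14:30599709-30599798, minus strand).
Prkcd-211: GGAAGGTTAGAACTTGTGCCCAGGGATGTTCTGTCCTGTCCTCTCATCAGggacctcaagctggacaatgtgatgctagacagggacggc
The value of this row is therefore not the level of a transcript that encodes the kinase.

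Nts is the 1 gene of the 6 with a single annotated transcript, ENSMUST00000020040 (Nts-201, chromosome 10, 102481756 to 102490486, minus strand, 4 exons, 169 codons). Its last exon encodes the peptides cut from the precursor at paired lysine and arginine residues. The codons of the 2 stretches between the last such pairs are in capitals (chr10:102482394-102482423 and chr10:102482349-102482399, minus strand), and their lengths are those of neuromedin N and neurotensin.
Nts, 6 codons: aagagaAAAATCCCTTATATTCTGaaaagg
Nts, 13 codons: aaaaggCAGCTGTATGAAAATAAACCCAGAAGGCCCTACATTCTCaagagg
The Nts row is the only one here in which a transcript value stands for all that is annotated of its gene.

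**Figure D1:**
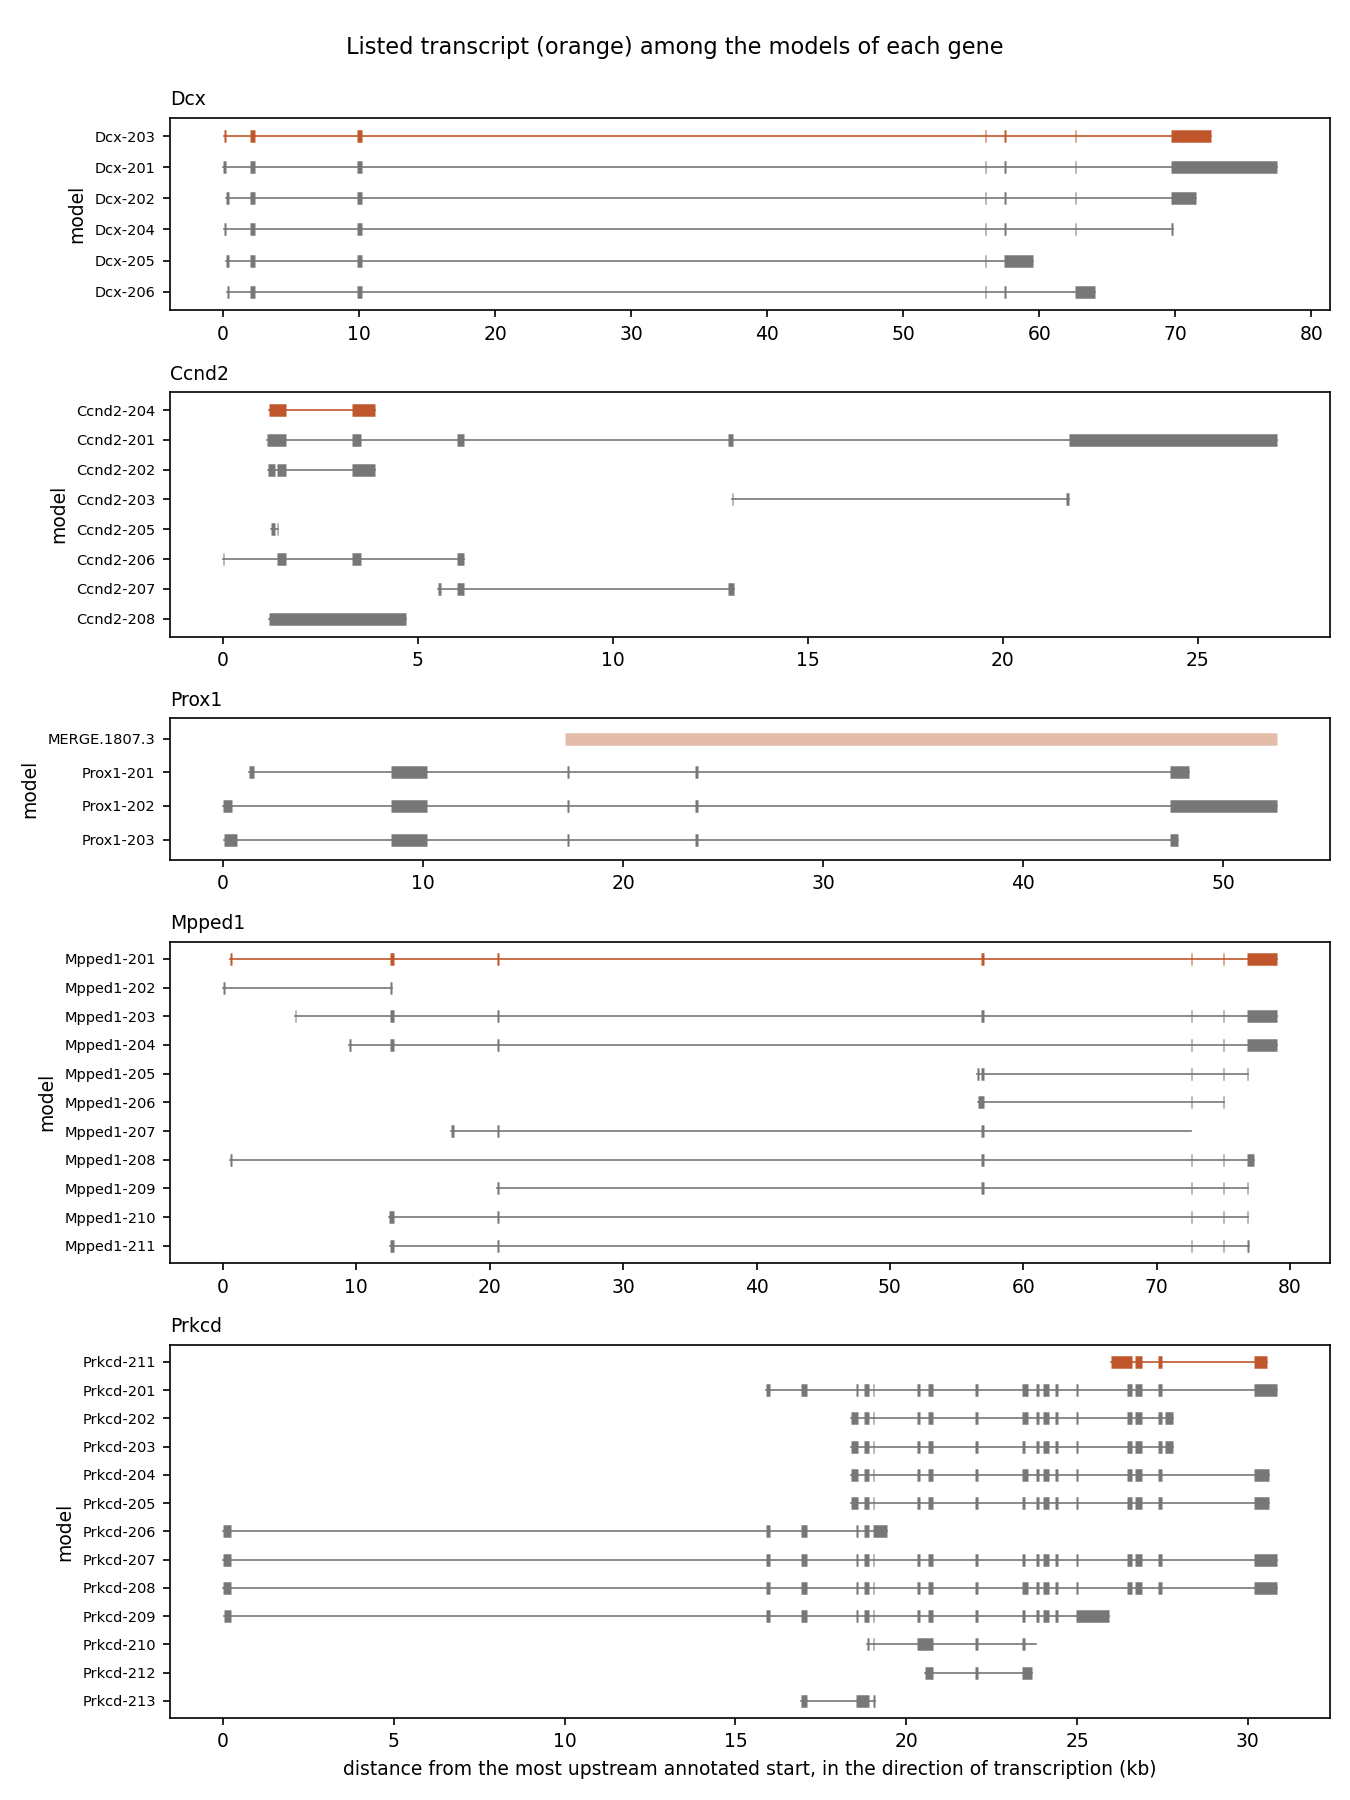
Exons (thick) and introns (thin) of the annotated GENCODE M21 models of 5 genes, against the distance in kilobases from the most upstream annotated start of each gene. The listed transcript is in orange and the others in grey, and MERGE.1807.3 is drawn as a pale span because its exons are not known. The listed Ccnd2 and Prkcd models cover a small part of their genes, and the span of the Prox1 model includes 3 of the 5 exons of the longest annotated transcript.

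Progenitors and immature neurons are the first group. Dcx ENSMUST00000112851 stood at 0.619, 0.386, 0.948 and 0.663 FPKM in replicates 1 to 4 of the knockout. In the controls it was listed at 0 in replicates 1, 2 and 4 and at 0.156 FPKM in replicate 3. All 4 knockout libraries were above all 4 controls, at a level that is low for the table, since 4.53% of listed transcripts had a lower mean over the 8 libraries. On the log2(FPKM + 0.5) scale the knockout was 1.09 higher (SE 0.175, n = 4 per group). The size of this difference depends on the pseudocount, being 2.52 with 0.1 and 0.66 with 1, and a listed 0 can be a failed estimate. In the authors' deposited table the log2 fold change was 6.89, the unadjusted p 0.000570 and the adjusted p 0.426.

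Ccnd2 ENSMUST00000201637 went the other way. It stood at 1.92, 1.14, 1.10 and 1.15 FPKM in replicates 1 to 4 of the knockout, against 3.31, 2.88, 2.16 and 2.82 FPKM in replicates 1 to 4 of the control. The groups did not overlap, although knockout replicate 1 came near the lowest control. The control mean was 2.79 ± 0.477 FPKM and the knockout mean 1.33 ± 0.391 FPKM (SD, n = 4 per group), a log2(FPKM + 0.5) difference of -0.86 (SE 0.178). In the authors' deposited table the log2 fold change was -1.18 and the adjusted p 0.888. Because the listed model is the short form, this value belongs to 1 model and gives no level of full-length cyclin D2 mRNA.

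Granule cells are represented by Prox1 MERGE.1807.3. It stood at 1.04, 13.6, 1.14 and 9.26 FPKM in replicates 1 to 4 of the knockout, against 10.1, 22.1, 11.6 and 14.0 FPKM in replicates 1 to 4 of the control. The groups overlapped. Knockout replicates 1 and 3 lay near 1 FPKM, while replicate 2 fell inside the control range and replicate 4 just under it. The knockout libraries spanned 13.1-fold, against 2.18-fold in the controls. The log2(FPKM + 0.5) difference was -1.73 with an SE of 0.873 (n = 4 per group), and it was between -1.24 (without knockout replicate 1) and -2.30 (without knockout replicate 2) with 1 library left out. The authors' deposited table gives a log2 fold change of -1.99 and an adjusted p of 0.888. The value is that of 1 model and does not measure Prox1 RNA as a whole or the number of granule cells. In bulk tissue, for any marker here, fewer cells of a type and less RNA per cell cannot be told apart.

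Among the pyramidal fields, CA1 is represented by Mpped1 ENSMUST00000046168, the most abundant of the 6. It stood at 80.5, 50.1, 48.8 and 63.4 FPKM in replicates 1 to 4 of the knockout, against 15.2, 20.7, 25.8 and 81.0 FPKM in replicates 1 to 4 of the control. Control replicate 4 was above every knockout library, and the other 3 controls were below every knockout library. The control mean was 35.6 ± 30.5 FPKM and the knockout mean 60.7 ± 14.8 FPKM (SD, n = 4 per group). The log2(FPKM + 0.5) difference was 1.05 (SE 0.545), between 0.75 (without control replicate 1) and 1.54 (without control replicate 4) with 1 library left out. Without control replicate 4 the groups no longer overlapped. In the authors' deposited table the log2 fold change was 1.11 and the adjusted p 0.888.

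The other listed CA1 marker was Zdhhc2 ENSMUST00000128166, of a palmitoyltransferase. It was listed at 0 in knockout replicates 1 and 2, at 1.44 and 1.22 FPKM in replicates 3 and 4, and between 0.713 and 1.81 FPKM in the controls. Mpped1 is also expressed in neocortex, so the neocortical list stands beside it. That list had 2 of 18 genes in the table, Lamp5 and Cux1. Its 5 transcripts summed to between 4.21 and 21.6 FPKM in the knockout and between 5.26 and 9.97 FPKM in the control. Of the 5, 1 was higher and 4 were lower in the knockout. Among the lower ones, Lamp5 ENSMUST00000123436 is annotated as a processed transcript and Lamp5 ENSMUST00000143777 as a retained intron, both without a coding sequence. The other lower ones were a merged model of Lamp5 and a protein-coding transcript of Cux1. Lamp5 encodes a lysosomal membrane protein of upper cortical layers and some interneurons. The transcript with the smallest p in the authors' deposited table, Lamp5 ENSMUST00000123436, stood at 0.0401, 0.0200, 0.0396 and 0.615 FPKM in replicates 1 to 4 of the knockout and between 0.629 and 1.46 FPKM in the controls, and its groups did not overlap. Of the other lower ones, Lamp5 ENSMUST00000143777 lay between 0.0707 and 0.439 FPKM in the knockout and between 0.301 and 0.903 FPKM in the controls. The Lamp5 model MERGE.14422.1 was listed at 0 in knockout replicates 2 to 4, stood at 2.25 FPKM in replicate 1, and lay between 0.576 and 2.82 FPKM in the controls. Cux1 ENSMUST00000175975 was listed at 0 in knockout replicates 2 and 3 and stood at 0.947 and 0.754 FPKM in replicates 1 and 4, against 0.484 to 1.08 FPKM in the controls. The higher one, Lamp5 ENSMUST00000057503, is the only listed Lamp5 transcript annotated as protein coding. It had the largest p of the 5 and is named outside the naming rule because it made up most of the summed level in the knockout. It stood at 18.3, 16.5, 20.4 and 2.40 FPKM in replicates 1 to 4 of the knockout and between 1.46 and 4.84 FPKM in the controls. Its groups overlapped through knockout replicate 4. The part of neocortical tissue in the Mpped1 values was not tested.

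Prkcd ENSMUST00000140701, the retained-intron transcript, stood at 8.77, 9.48, 30.3 and 7.66 FPKM in replicates 1 to 4 of the knockout, against 5.07, 4.54, 5.14 and 6.57 FPKM in replicates 1 to 4 of the control. All knockout libraries were above all controls, and knockout replicate 3 was far above the other 3. The log2(FPKM + 0.5) difference was 1.09 (SE 0.455, n = 4 per group), and between 0.65 (without knockout replicate 3) and 1.29 (without knockout replicate 4) with 1 library left out. In the authors' deposited table the log2 fold change was 1.12, the unadjusted p 0.0457 and the adjusted p 0.888, so this row lies just inside the listing limits.

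Prkcd is shared by the CA3 and thalamic lists, and their other members are set beside it. Thalamic markers had 2 of 17 genes in the table, and the defining thalamic factor Tcf7l2 was not among them. The second gene, Plekhg1, had 2 transcripts, both with lower knockout means. They summed to between 0 and 1.69 FPKM in the knockout, highest in replicate 3, and to between 1.59 and 5.34 FPKM in the control. In knockout replicate 3 the retained-intron transcript ENSMUST00000144543 stood at 1.68 FPKM and the protein-coding ENSMUST00000120274 at 0.0112 FPKM. The part of thalamic tissue in the Prkcd values was not tested. CA3 markers had 4 of 16 genes in the table with 5 transcripts, 2 higher and 3 lower in the knockout. The higher ones were Prkcd and a model of Cdh24. The lower ones were a model of Grik4 and both listed Elavl2 transcripts, whose values are given under other observations. The Cdh24 and Grik4 models were named by position. The groups did not overlap for the Cdh24 model, which was higher, nor for Elavl2 ENSMUST00000128599, a retained-intron transcript that was lower. The merged model of Cdh24 (MERGE.8045.4), a cadherin, had a control mean of 3.92 ± 0.180 FPKM and a knockout mean of 8.66 ± 3.10 FPKM (SD, n = 4 per group). That of Grik4 (MERGE.26017.4), a kainate receptor subunit, stood at 5.24 FPKM in knockout replicate 1, and at 0.0138 FPKM in replicate 2, was listed at 0 in replicates 3 and 4, and lay between 0.492 and 8.05 FPKM in the controls. The 4 CA3 transcripts other than Prkcd summed to between 6.01 and 12.6 FPKM in the knockout and between 4.95 and 16.7 FPKM in the control. No CA2 marker of 12 was in the table.

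The subiculum is represented by Nts ENSMUST00000020040. It stood at 0.988, 2.98, 1.76 and 1.80 FPKM in replicates 1 to 4 of the knockout, against 3.61, 5.65, 2.60 and 2.94 FPKM in replicates 1 to 4 of the control. The groups overlapped through knockout replicate 2, which was above control replicates 3 and 4. The control mean was 3.70 ± 1.37 FPKM and the knockout mean 1.88 ± 0.821 FPKM (SD, n = 4 per group), a log2(FPKM + 0.5) difference of -0.83 (SE 0.332). In the authors' deposited table the log2 fold change was -1.09 and the adjusted p 0.888. No other subicular marker of the 13 in the list was in the table.

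**Figure D2:**
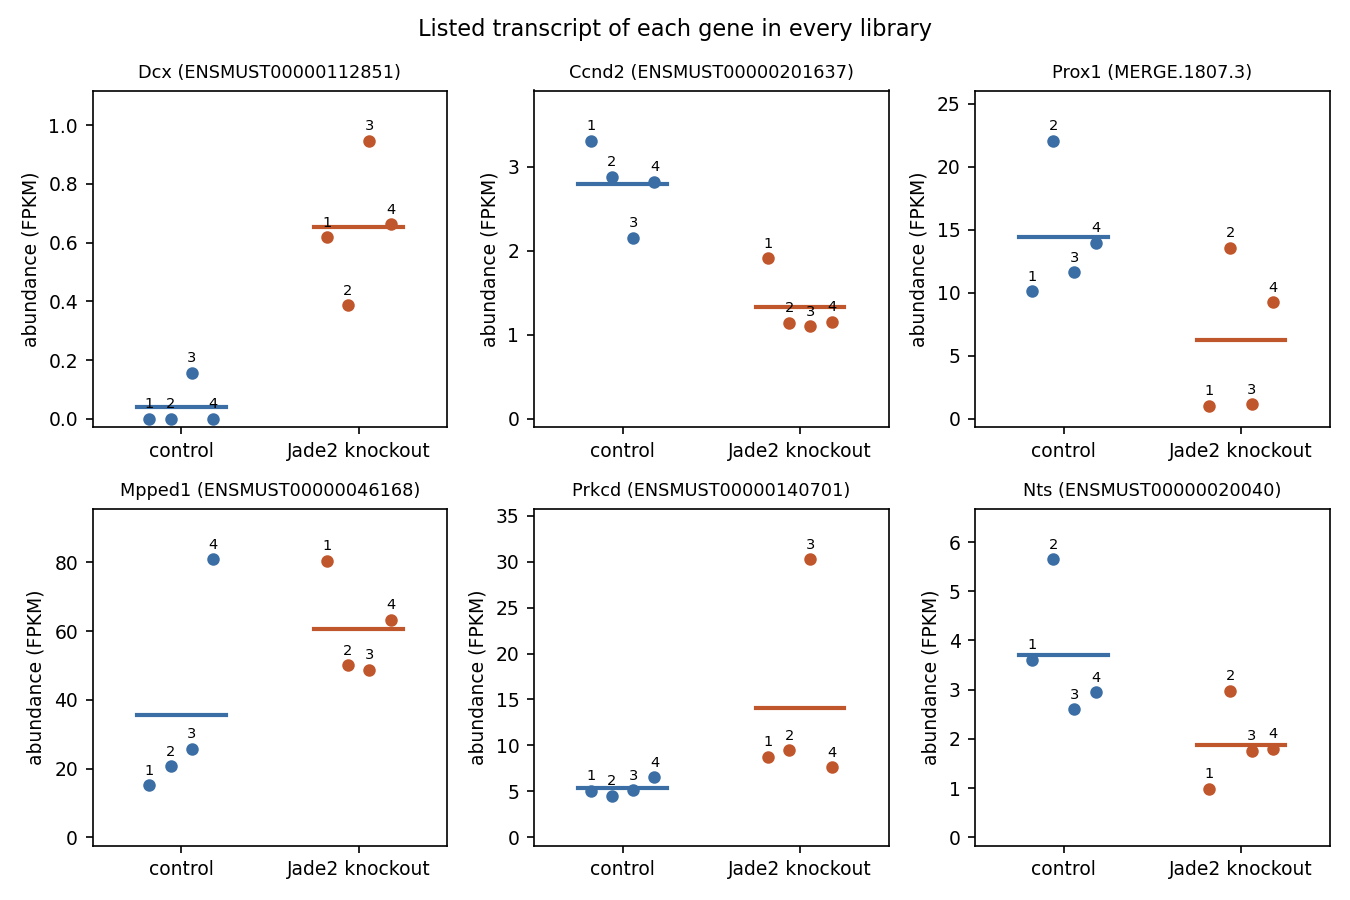
Abundance in FPKM (linear axis) of the listed transcript of each gene in the 4 control (blue) and 4 Jade2-knockout (orange) libraries, numbered by replicate, with the group mean as a line. Control replicate 4 for Mpped1 (81.0 FPKM) and knockout replicate 3 for Prkcd (30.3 FPKM) lie far from their groups, and the Prox1 knockout libraries fall at 2 levels.

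Ordered by mean abundance over the 8 libraries, Mpped1 was highest at 48.2 FPKM, followed by Prox1 at 10.4, Prkcd at 9.69, Nts at 2.79, Ccnd2 at 2.06 and Dcx at 0.347 FPKM. Prox1 and Prkcd, and likewise Nts and Ccnd2, lie within each other's spread over libraries. These are levels of single models per length, and they do not order the genes as wholes.

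Of the 6 transcripts, 3 were higher in the knockout (Dcx, Mpped1 and Prkcd) and 3 lower (Ccnd2, Prox1 and Nts), against 48.5% higher and 51.5% lower over the table. By the authors' deposited table, none reached an adjusted p of 0.05, which 0.893% of listed transcripts did, and all 6 had an unadjusted p under 0.05, as listing required. The groups did not overlap for 3 of the 6 (Dcx, Ccnd2 and Prkcd), against 36.1% of the table. In 2 of these the knockout was the higher group and in 1 the lower, against 19.7% and 16.4% of the table. Without knockout replicate 2 the number without overlap was 5, with Prox1 and Nts added. Leaving a library out can only add transcripts without overlap, and the share of the table without that library was not computed. The median absolute log2(FPKM + 0.5) difference was 1.07 for the 6 and 1.06 for all listed transcripts. In size, direction and separation the 6 were therefore near the table as a whole. Dcx ranked 48th and Ccnd2 159th by p in the authors' deposited table, and the other 4 ranked between 1009th and 1538th of 1679.

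**Figure D3:**
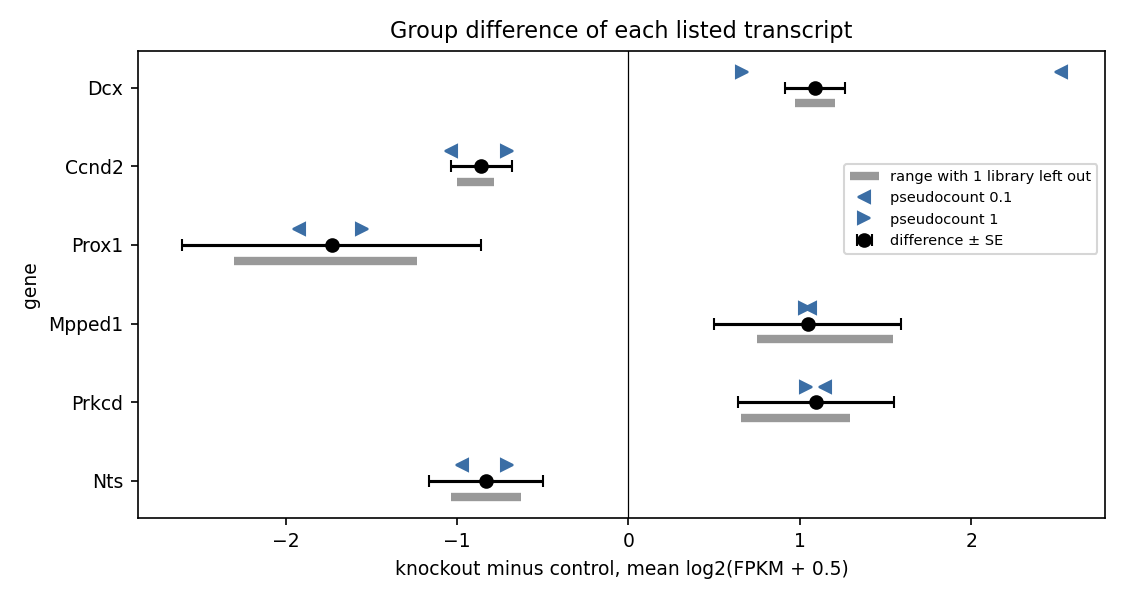
Knockout minus control difference in mean log2(FPKM + 0.5) for the 6 transcripts (points, with SE as bars, n = 4 per group), with the range when 1 library is left out (grey) and the values with pseudocounts of 0.1 and 1 (triangles). The sign is the same under each of these settings, and the pseudocount moves Dcx most, from 0.66 to 2.52.

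The 6 transcripts did not order the libraries in one way. Knockout replicates 1 and 3 were the lowest 2 of the 8 libraries for both Prox1 and Nts, and control replicate 2 was the highest for both. For Prkcd and Dcx the highest library was knockout replicate 3. For Mpped1 it was control replicate 4, and for Ccnd2 control replicate 1. Within the knockout, replicate 2 was the highest for Prox1 and Nts and the lowest for Dcx. The standard error of the difference on the log2(FPKM + 0.5) scale was 0.178 for Ccnd2 and 0.873 for Prox1. That of Dcx, with 3 controls listed at 0, depended on the pseudocount, at 0.175 with 0.5 and 0.409 with a pseudocount of 0.1.

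**Figure D4:**
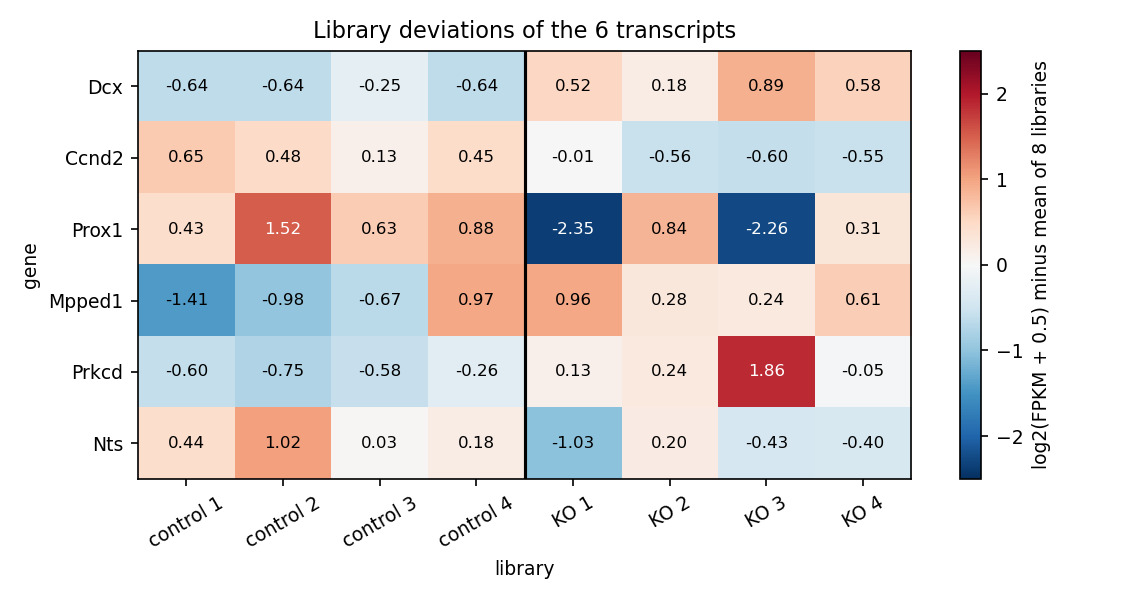
Deviation of each library from the mean over the 8 libraries, in log2(FPKM + 0.5), for the 6 transcripts (rows) and the control and knockout (KO) libraries (columns). The largest negative values are those of Prox1 in knockout replicates 1 and 3, at -2.35 and -2.26, and the largest positive value is Prkcd in knockout replicate 3, at 1.86.

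Other listed transcripts with a similar pattern were looked for among those with a mean of at least 1 FPKM and a gene name. Likeness was the mean absolute difference in log2(FPKM + 0.5) over the 8 libraries after centring each transcript on its own mean, so a smaller value is more alike. The most alike for Prox1 were Tmem131l ENSMUST00000052342, at a distance of 0.287, and the Baz2b model MERGE.13649.3, at 0.325, against a median of 1.46 over 794 candidates. Both were listed at 0 in knockout replicates 1 and 3, and stood between 2.51 and 4.16 FPKM in the other 6 libraries. For Nts they were the Dis3l model MERGE.26394.3 (0.180) and Cndp2 ENSMUST00000168419 (0.205). For Dcx they were Efr3a ENSMUST00000174601 (0.188) and the Mob2 model MERGE.24044.4 (0.191), and for Ccnd2 Dock10 ENSMUST00000186087 (0.150) and R3hdm1 ENSMUST00000187557 (0.157). For Mpped1 they were the Luc7l2 model MERGE.20525.15 (0.289) and Ppp5c ENSMUST00000124573 (0.306), and for Prkcd Ilk ENSMUST00000154626 (0.258) and Adgrb1 ENSMUST00000190524 (0.291). With so many candidates and 8 libraries, close matches are easily found, and all were selected for a group difference.

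The remaining genes of these cell types and pathways were taken from 15 lists with 236 genes in all, of which 20 genes had a transcript in the table. Of the 20 transcripts other than the 6 described, 6 were higher and 14 lower in the knockout, against 48.5% higher over the table. The groups did not overlap for 5 of the 20, against 36.1%. By the authors' deposited table, none of the 20 reached an adjusted p of 0.05. The median log2(FPKM + 0.5) difference of the 20 was -0.77, against -0.51 over all listed transcripts. A gene that is not in the table is not shown to be unchanged.

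Ccnd2 was the 1 gene of 22 stem and progenitor markers in the table, Dcx the 1 of 20 immature-neuron markers and the 1 of 9 doublecortin-family genes, and Prox1 the 1 of 16 granule-cell markers. Division and early neuronal stages thus each rest on 1 transcript. Among 47 cyclins, cyclin-dependent kinases and their regulators, 3 further genes were in the table. Cdkn2d had a higher knockout mean, and merged models named Cdk12 and Ccnt1 by position had lower ones. The Cdk12 model (MERGE.4634.3) was listed at 0 in knockout replicates 1 and 4, and the Ccnt1 model (MERGE.9412.3) in knockout replicates 1 and 2. In the remaining knockout libraries both lay within the control range. Cdkn2d ENSMUST00000086374 encodes an inhibitor of the kinases that D-type cyclins activate. It stood at 2.52, 1.37, 5.29 and 3.76 FPKM in replicates 1 to 4 of the knockout, against 1.60, 0.950, 0.951 and 0.274 FPKM in replicates 1 to 4 of the control. The groups overlapped through knockout replicate 2, and the log2(FPKM + 0.5) difference was 1.34 (SE 0.460, n = 4 per group). Of 9 protein kinase C genes, Prkch and Prkci were in the table beside Prkcd, both with higher knockout means. Prkci ENSMUST00000130706, also a retained-intron transcript, had a control mean of 0.403 ± 0.0826 FPKM and a knockout mean of 0.969 ± 0.442 FPKM (SD, n = 4 per group), and its groups overlapped by a narrow margin. Of 9 mossy-cell markers, Nmb was in the table, at 0.572 and 1.02 FPKM in knockout replicates 1 and 4, listed at 0 in replicates 2 and 3, and between 0.655 and 1.28 FPKM in the controls. No gene of the 15 in the interneuron list was in the table, while Lamp5, found in some interneurons as well, was counted with the neocortical list.

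**Figure D5:**
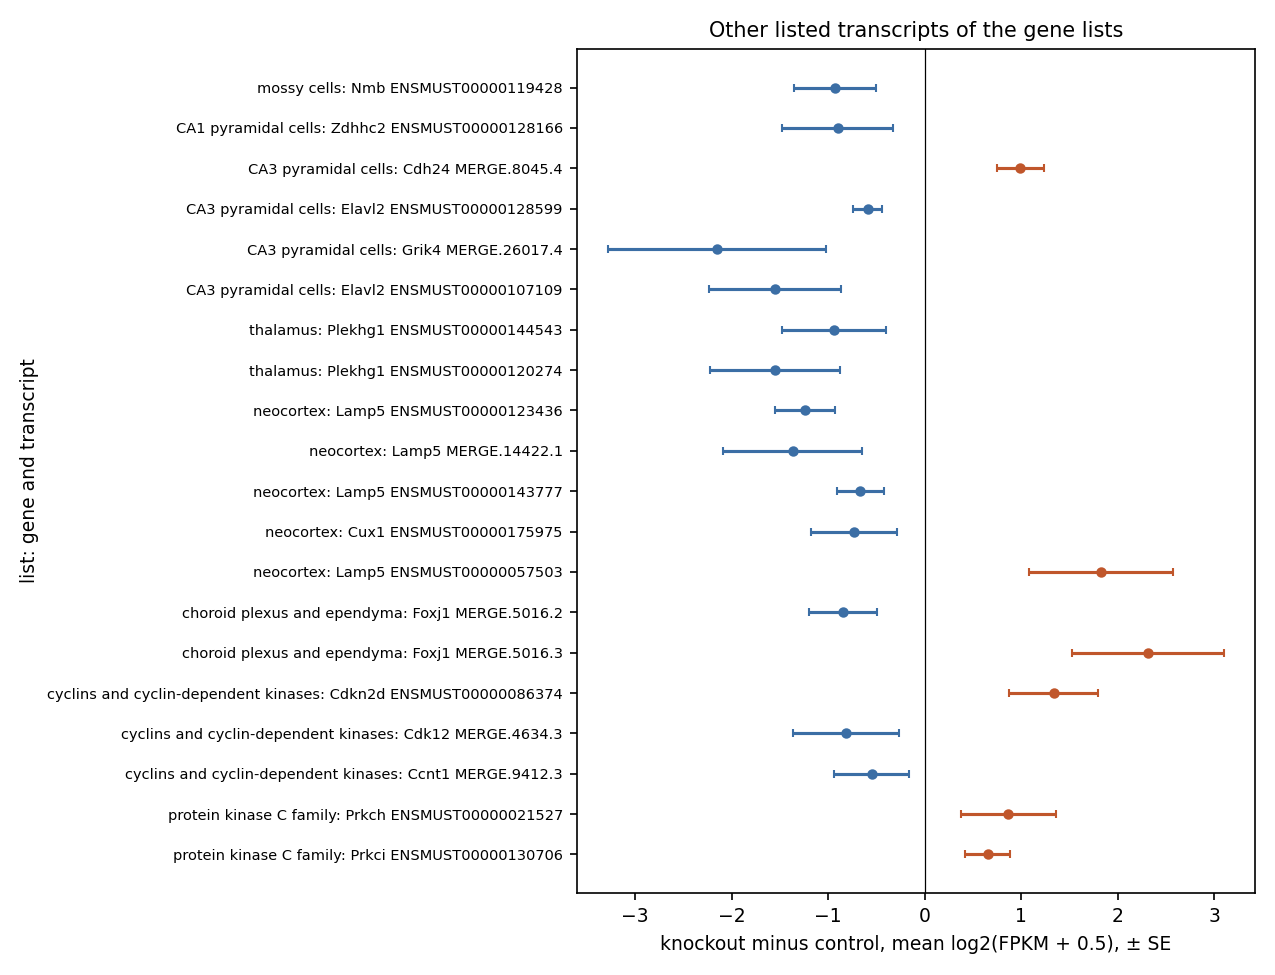
Knockout minus control difference in mean log2(FPKM + 0.5), with SE as bars (n = 4 per group), for the 20 other transcripts of the marker and pathway lists. Higher values in the knockout are orange (6 transcripts) and lower ones blue (14 transcripts).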

How the data were processed

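Hippocampal RNA-seq libraries of 4 control and 4 Jade2-knockout samples were grouped by their labels. The submitters' processing notes name HISAT2, Cuffdiff and the mm10 build, without versions. The abundances deposited by the authors carry no unit and were treated as FPKM. The deposited table also holds the authors' log2 fold changes and their unadjusted and adjusted p-values, from a test that no label or header names. The table holds no counts, so depth and counting error are unknown.

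Rows were taken by gene symbol, and the Prox1 row by its locus. The 541 models without a symbol were named by a named transcript of their locus (103) or by at least 50% reciprocal overlap with a GENCODE M21 gene on the same strand (291), and 147 stayed unnamed. Group differences were computed as mean log2(FPKM + 0.5) in the knockout minus the control, which understates changes of low transcripts. No test of the group differences was run, because the members, the gene lists and the comparison were chosen with earlier results of these data known. Dixon's critical value was used only to flag single libraries within a group. All 6 members are described. Of the other gene lists, up to 4 transcripts each were named by the smallest p in the authors' table, and 1 Lamp5 transcript was named outside that rule after its values were seen. Python 3.11.15, numpy 2.4.6, pandas 2.3.3 and matplotlib 3.10.9 were used.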

Additional observations from a re-analysis of the deposited data

Results flagged for a closer look

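In 4 of 12 groups of 4 libraries for the 6 transcripts, a single library stood apart, with a gap to its neighbour, as a share of the whole range, above Dixon's 95% critical value. Among all listed transcripts, 17.2% of 3320 groups did so. The critical value gives about 1 in 20 for normally distributed values, and these abundances need not be normal. In 691 listed transcripts at least 1 library was at 0, so that rate is no reference for them. For Dcx the control group had a gap of 1.00, since control replicate 3 was the only control not listed at 0. Such a group has this gap whatever the value of that library. For Ccnd2 the knockout group had a gap of 0.938, with replicate 1 at 1.92 FPKM above the other 3. For Mpped1 the control group had a gap of 0.839, with replicate 4 at 81.0 FPKM above the other 3. For Prkcd the knockout group had a gap of 0.920, with replicate 3 at 30.3 FPKM above the other 3.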

How the results depend on the processing

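The direction of all 6 differences was the same under both other pseudocounts, scaling by the library median and each left-out library. With 1 library left out, 3 transcripts were higher in the knockout each time, and the number with groups that did not overlap was between 3 and 5. It was 5 without knockout replicate 2, when Prox1 and Nts separated as well, and 4 without control replicate 4. Leaving a library out can only add to this number, for the table as for the members. The share of the table under these settings was not computed, so the counts are no result about the members. With a mean of at least 1 FPKM required, Dcx dropped out, leaving 2 higher and 2 without overlap, again without the share of the table at that limit. The Dcx difference was 2.52 with a pseudocount of 0.1 and 0.66 with 1, because 3 controls are listed at 0. The sum per locus could not differ from the row, since each locus has 1 listed transcript. No label or header says that replicate numbers pair the libraries. Deviations from the group means over 849 transcripts correlated between -0.03 and 0.04 for same-numbered libraries, and between -0.04 and 0.04 for differently numbered ones. These rows were selected for a group difference, so the correlations cannot decide whether the libraries were paired. With the replicate number as a block, 3 transcripts were higher in the knockout. The SE was then 0.0886 for Dcx, 0.0965 for Ccnd2, 0.640 for Prox1, 0.560 for Mpped1, 0.480 for Prkcd and 0.224 for Nts. Since no pairing by number is recorded, a smaller SE here is not read as a gain in precision over the unpaired one. Mpped1 was higher in 3 of 4 numbered pairs.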

Other observations

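Foxj1, the ciliogenesis factor of ependymal cells, was the 1 gene of 9 choroid plexus and ependyma markers in the table. Its 2 listed models, both merged models named by position, went opposite ways. The model MERGE.5016.2 stood at 1.34, 2.10, 0.398 and 1.83 FPKM in replicates 1 to 4 of the knockout and between 2.42 and 3.08 FPKM in the controls. The model MERGE.5016.3 stood at 3.18, 5.43 and 2.99 FPKM in knockout replicates 1, 3 and 4, and was listed at 0 in knockout replicate 2 and in all 4 controls. Elavl2, an RNA-binding protein of neurons and a member of the CA3 list, had 2 listed transcripts, both with lower knockout means. Elavl2 ENSMUST00000128599 stood at 0.238, 0.373, 0.236 and 0.131 FPKM in replicates 1 to 4 of the knockout and between 0.464 and 0.885 FPKM in the controls, without overlap. Elavl2 ENSMUST00000107109 was listed at 0 in all 4 knockouts and in control replicate 4, and stood at 3.93, 1.63 and 0.468 FPKM in control replicates 1 to 3.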
